A study of Mus musculus with 6 samples.

Results

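Ceacam1 and Ceacam2 are a pair of closely related mouse genes, and their transcripts were followed here in the kidney after an operation labelled IVCC and after sham surgery. They are 2 of the 24346 gene symbols in the deposited expression table, taken by symbol. The pair was chosen by measured values, because Ceacam2 had been seen to be lower in the IVCC group with no overlap between the groups. The difference between the groups in Ceacam2 and in its paralog is therefore described without a test. The kidneys came from C57BL/6 mice, with 3 libraries after IVCC surgery and 3 after sham surgery. What IVCC stands for is not given in the labels, nor are age, sex or time after surgery, and they name no genetic change or drug in either group. Whether each library came from its own animal is not stated either, and p-values below therefore cover only the spread among these libraries.

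CEACAM proteins are cell adhesion molecules of the immunoglobulin superfamily, named after the carcinoembryonic antigen. CEACAM1 is found on epithelial cells, endothelial cells and leukocytes, where it binds CEACAM1 on neighbouring cells. The tail of its long form recruits the tyrosine phosphatases SHP-1 and SHP-2, which dampens signals from other receptors. In liver it promotes the uptake and clearance of insulin. CEACAM2 is a close relative known in rodents, with a narrower range of tissues that includes the kidney.

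The genes lie side by side on the minus strand of chromosome 7 (GRCm38, GENCODE M21). Ceacam1 (ENSMUSG00000074272.10) spans 25461707 to 25477603 and Ceacam2 (ENSMUSG00000054385.14) spans 25516042 to 25539857, with 38.4 kb between them. In each gene the transcript with the longest coding part has 9 exons, with 1566 coding bases in Ceacam1 and 1563 in Ceacam2. Over the aligned coding bases 92.2% were identical. The identity was uneven along the message. It was 82.9% in exon 2, which encodes the outermost immunoglobulin domain, 97.9% in exon 3 and 100% in exon 4. It was 88.6% in exon 5, 81.4% in exon 6 and 100% in the coding parts of exons 7, 8 and 9.

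The sequences below are shown because a read of 75 bases, the length used here, can be placed on 1 paralog in some places and not in others. The first pair is the window of 75 coding bases with the most differences between the paralogs, 22 in all, with the differing bases in capitals. It lies in exon 5, at chr7:25471919-25471993 in Ceacam1 and chr7:25527862-25527936 in Ceacam2. The last line is the start of the longest coding stretch that is the same in both, 319 bases, and so has no capitals. In Ceacam1 it runs from the end of exon 3 (chr7:25474520-25474565) into exon 4 (chr7:25474024-25474052). In Ceacam2 it lies in the same exons (chr7:25530471-25530516 and chr7:25529976-25530004). All are written 5′ to 3′ in the direction of transcription, from the GENCODE M21 transcripts.
Ceacam1, most different window: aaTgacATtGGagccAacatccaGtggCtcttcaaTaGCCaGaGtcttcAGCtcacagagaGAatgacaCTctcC
Ceacam2, most different window: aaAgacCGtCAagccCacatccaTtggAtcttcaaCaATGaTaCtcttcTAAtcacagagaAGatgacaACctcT
Ceacam1 and Ceacam2, identical window: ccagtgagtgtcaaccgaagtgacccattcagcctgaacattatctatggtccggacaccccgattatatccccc

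Over all annotated transcripts, 1487 different sequences of 75 bases occurred in both genes. These were 24.2% of those of Ceacam1 and 38.5% of those of Ceacam2. In the longest-coding transcript the share of 75-base windows found in the paralog was 30.5% for Ceacam1 and 31.1% for Ceacam2. The shared windows made up 30.1% and 30.2% of the coding windows and 31.0% and 32.8% of the windows of the 3′ untranslated region. Apart from the paralog, only Ceacam10 shared any 75-base sequence with the pair, 21 of them with Ceacam1, and Ceacam10 was listed at 0 in all 6 libraries. How reads that match both genes were divided is not given in the sources used here, so the separate values of the paralogs are uncertain, and the part of such reads in the difference was not tested.

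**Figure D1:**
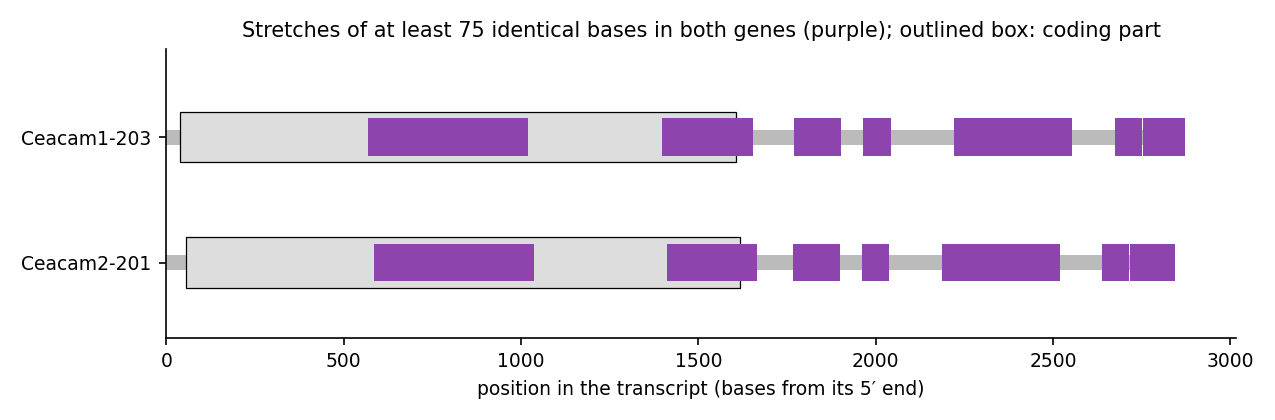
Map of the longest-coding transcripts of Ceacam1 and Ceacam2, with the position in bases from the 5′ end on the x axis. Purple blocks are stretches of at least 75 bases found in both genes and the outlined box is the coding part; the shared blocks lie in the middle and at the end of the coding part and along the 3′ untranslated region, and together hold 30.5% of the 75-base windows of Ceacam1 and 31.1% of those of Ceacam2.

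The expression values are FPKM, that is, fragments per kilobase of transcript relative to all mapped fragments. Read totals are not part of the table. Spacing of the lowest values put the nominal library sizes at 8140000 to 9170000 reads for the IVCC and 6130000 to 7180000 for the Sham libraries, with 84.6% to 90.1% of the values used lying within 0.1 of a whole number of reads. Every nominal size in IVCC was above every one in Sham. The proximal tubule transporter gene Slc34a1 stood at 2131 to 2576 FPKM, whereas the fat cell gene Adipoq and the adrenal gene Cyp11a1 were listed at 0 in all 6 libraries. Of the 7 fat cell markers listed, 5 were at 0 in all libraries, Adipoq among them. Another of the list, Fabp4, stood at 74.7 to 140.3 FPKM, so fat cell markers were not absent as a set.

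Ceacam2 was the lower of the paralogs in every library and the one that differed most between the groups. It stood at 1.594, 1.659 and 2.541 FPKM in IVCC replicates 1 to 3, and at 4.599, 6.325 and 6.369 FPKM in Sham replicates 1 to 3. All 3 IVCC libraries lay below all 3 Sham libraries, and the highest IVCC value was 2.06 FPKM under the lowest Sham value, a ratio of 1.81. The means were 1.93 ± 0.529 FPKM after IVCC and 5.76 ± 1.01 FPKM after sham surgery (SD, n = 3 each), which makes the Sham mean 2.98 times the IVCC mean. On the log2(FPKM + 1) scale used for the fit the difference, IVCC minus Sham, was -1.21 with a standard error of 0.18. This scale understates the change of low genes. In nominal reads, at the length of its longest-coding transcript, Ceacam2 corresponded to 34.3, 37.2 and 61.6 in IVCC and to 84.7, 120.04 and 103.3 in Sham. Its other annotated transcripts differ in length, so these numbers are rough. In bulk tissue, fewer cells that express a gene and less of its RNA per cell cannot be told apart.

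Ceacam1 went the other way, by less, and its groups touched. It stood at 8.658, 9.438 and 7.340 FPKM in IVCC replicates 1 to 3 and at 6.144, 6.771 and 7.384 FPKM in Sham replicates 1 to 3. The lowest IVCC library, replicate 3, was just below the highest Sham library, which was also replicate 3 (difference -0.044 FPKM). The means were 8.48 ± 1.06 FPKM after IVCC and 6.77 ± 0.620 FPKM after sham surgery (SD, n = 3 each), so that the IVCC mean was 1.25 times the Sham mean. The log2 difference was 0.28 with a standard error of 0.13. Only these libraries crossed, so leaving out either of them had to part the groups, and nothing is read from that. The groups still overlapped when any other library was left out.

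**Figure D2:**
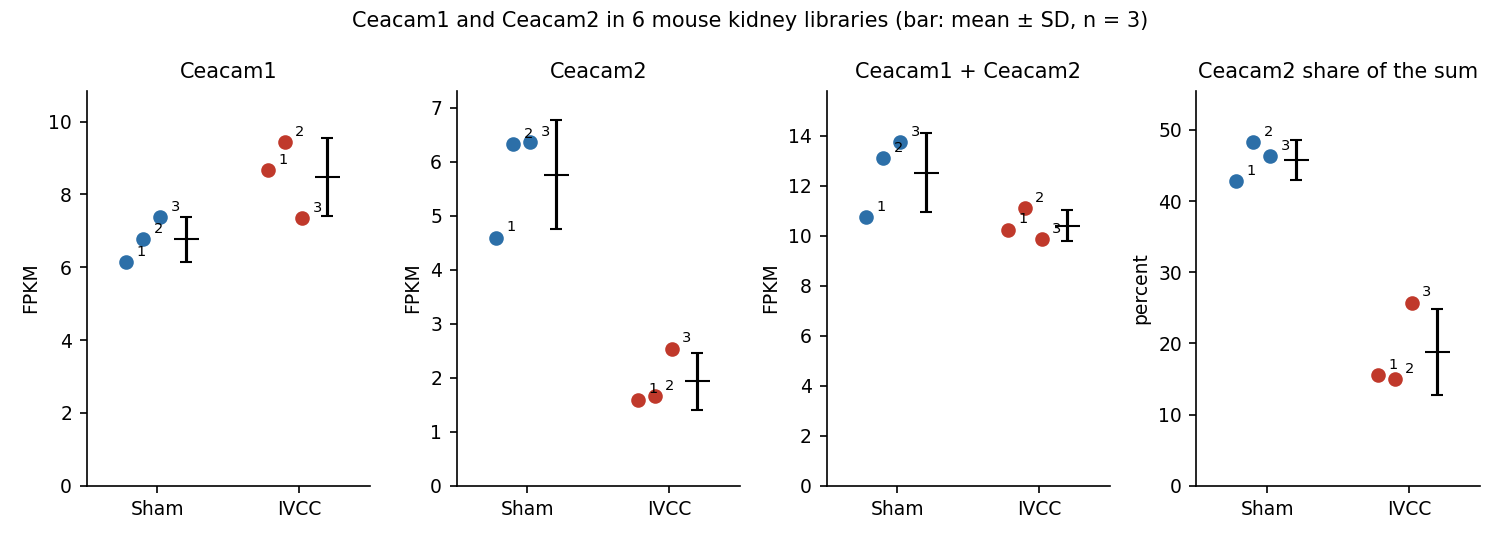
FPKM of Ceacam1, of Ceacam2 and of their sum, and the percent of the sum that is Ceacam2, in each Sham (blue) and IVCC (red) library, numbered by replicate, with bars for the mean ± SD (n = 3). The Ceacam2 values of the IVCC libraries (1.594 to 2.541) lie apart from those of the Sham libraries (4.599 to 6.369), whereas the groups overlap for Ceacam1 and for the sum.

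The balance between the paralogs differed more than their total. In Sham they were nearly level, with Ceacam1 at 1.34, 1.07 and 1.16 times Ceacam2 in replicates 1 to 3. In IVCC that ratio was 5.43, 5.69 and 2.89. Ceacam2 made up 45.8 ± 2.78% of the summed FPKM after sham surgery and 18.7 ± 6.05% in IVCC (SD, n = 3 each). The share ran from 42.8% to 48.3% in Sham and from 14.95% to 25.7% in IVCC, with IVCC replicate 3 the highest of its group. The sum itself was 10.25, 11.10 and 9.88 FPKM after IVCC and 10.74, 13.10 and 13.75 FPKM after sham surgery. Its means were 10.4 ± 0.623 and 12.5 ± 1.58 FPKM (SD, n = 3 each), and the groups overlapped, since IVCC replicate 2 was above Sham replicate 1. The mean sum was lower in IVCC by 2.12 FPKM, made up of 3.83 FPKM less Ceacam2 and 1.71 FPKM more Ceacam1.

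As background to these values, the 12090 genes that averaged 1 FPKM or more were fitted together with limma. The 3 IVCC values lay below the 3 Sham values for 4.22% of those genes and above them for 4.09%. An unadjusted p under 0.05 was found for 3.56% (431 genes), and limma called 0% (0 genes) at a Benjamini-Hochberg adjusted p under 0.05. Ceacam2 was chosen on this contrast, so nothing is read from its place among the 4.22%. By mean level over the 6 libraries, 39.8% of the fitted genes were lower than Ceacam1 and 23.3% were lower than Ceacam2.

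The rest of the family was at or near 0. Of the other 13 CEACAM symbols, 8 were listed at 0 in all 6 libraries, and none reached the mean of 1 FPKM. A listed 0 may stand for a failed estimate as well as for an absence of reads. Ceacam19 had the highest mean of them, with values of 0.037 to 0.421 FPKM over the 6 libraries. Ceacam20 was above 0 in 4 libraries, reaching 0.161 FPKM, and Ceacam16 stood at 0.096 FPKM in 1 library. The related pregnancy-specific glycoprotein genes were listed at 0 in all libraries for 10 of 13 symbols. Psg23 was the exception. It stood at 5.385, 4.915 and 7.636 FPKM after IVCC and at 7.120, 6.497 and 10.108 FPKM after sham surgery, so it was at the level of Ceacam1 and its groups overlapped. Its log2 difference was -0.35 with a standard error of 0.20 (limma adjusted p = 0.924). Psg16 and Psg29 stayed at or below 0.234 FPKM.

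None of the CEACAM1 partner and signalling genes was called. Of 31 listed, 25 were tested, 18 of them with a higher and 7 with a lower fitted value in IVCC. The median log2 difference was 0.08, beside -0.01 over all fitted genes. Of the 25, 2 had all IVCC values above all Sham values, 0 had them below, and 0 passed limma's adjusted threshold, with 1 at an unadjusted p under 0.05. Over all fitted genes, 4.09% lay above, 4.22% lay below and 3.56% had an unadjusted p under 0.05. The split rests on the scaling: after scaling to TPM, which moved the median of all genes to 0.15, it was 24 higher and 1 lower. The phosphatase gene Ptpn6, which encodes SHP-1, stood at 15.8, 16.2 and 18.6 FPKM after IVCC and at 17.3, 17.7 and 16.5 FPKM after sham surgery, with overlapping groups (limma adjusted p = 0.969). Ptpn11, which encodes SHP-2, averaged 17.3 ± 3.32 and 14.0 ± 2.64 FPKM, also with overlap (limma adjusted p = 0.924).

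Among the receptors and ligands, Lgals9, which encodes galectin-9, a ligand of the immune receptor TIM-3, had the smallest unadjusted p of the list. It stood at 9.415, 10.446 and 8.427 FPKM after IVCC and at 7.281, 7.716 and 7.437 FPKM after sham surgery, a log2 difference of 0.29 with a standard error of 0.12 (limma adjusted p = 0.924). Havcr2, which encodes TIM-3 itself, a receptor to which CEACAM1 has been reported to bind, remained under the level tested at 0.055 to 0.516 FPKM. The insulin receptor gene Insr averaged 10.2 ± 0.851 FPKM after IVCC and 8.78 ± 1.05 FPKM after sham surgery, and its groups overlapped. Its substrate gene Irs1 did not overlap, at 2.303, 2.985 and 2.684 FPKM against 2.089, 2.076 and 1.664 FPKM, with a log2 difference of 0.31 and a standard error of 0.14 (limma adjusted p = 0.924). Tln1, which encodes the integrin-binding protein talin, averaged 31.7 ± 1.83 and 27.4 ± 3.08 FPKM with overlap.

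Genes reported to regulate CEACAM1 transcription or splicing were split evenly, 7 higher and 7 lower of 14 tested, with a median log2 difference of 0.05. All 14 had a higher fitted value after scaling to TPM. Over all fitted genes, the groups did not overlap for 4.09% in the higher and 4.22% in the lower direction, and 3.56% had an unadjusted p under 0.05. None of the 14 was called, 1 had an unadjusted p under 0.05, and the groups did not overlap for 1 gene in each direction. The interferon-induced transcription factor gene Irf1 was the higher of those, at 11.499, 13.312 and 9.077 FPKM after IVCC and 8.226, 8.783 and 5.791 FPKM after sham surgery. Its log2 difference was 0.52 with a standard error of 0.19 (limma adjusted p = 0.924). Hnrnpm, an RNA-binding protein gene of splicing, was the lower one without overlap, at 62.6 ± 2.48 and 67.2 ± 1.35 FPKM. Its log2 difference was only -0.101 with a standard error of 0.0997 (limma adjusted p = 0.924), and its direction turned after scaling to TPM. The fatty acid receptor gene Ppara averaged 15.5 ± 2.21 and 13.5 ± 0.895 FPKM with overlap, and Pparg stood at 0.618 to 0.971 FPKM after IVCC and 0.908 to 1.347 FPKM after sham surgery, under the level tested.

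**Figure D3:**
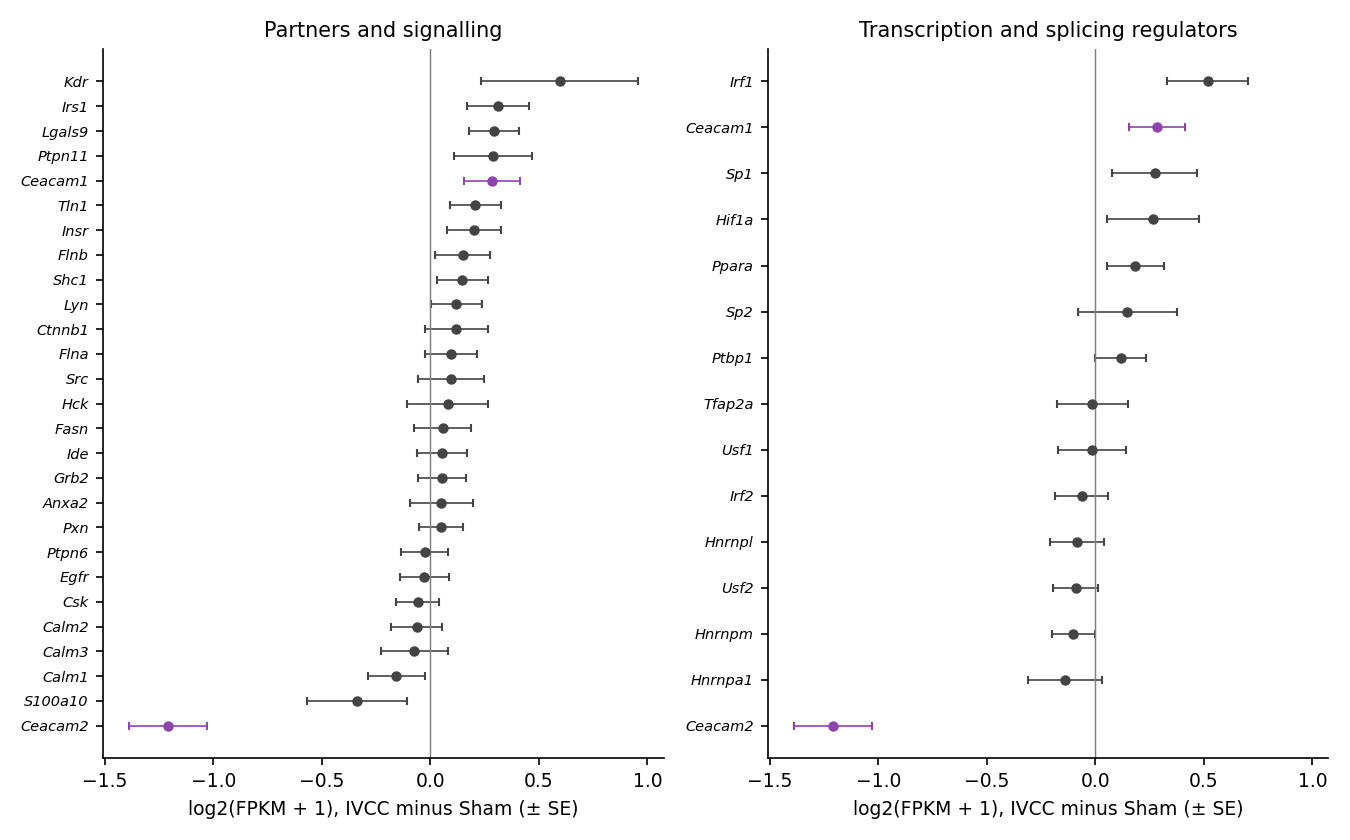
Difference between the groups, IVCC minus Sham, on the log2(FPKM + 1) scale with its standard error, for the 25 partner and signalling genes (left) and 13 of the 14 regulators (right) tested, with Ceacam1 and Ceacam2 in purple. Ceacam2, which was chosen for its difference, lies at -1.21, and Ceacam1, at 0.28, lies among the higher genes of both lists.

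None of the neighbours on chromosome 7 was called. Ceacam2 was chosen for its difference, so nothing is read from the size of theirs beside it. Of 55 annotated genes that start within 500 kb of either paralog, 20 were tested, 9 with a higher and 11 with a lower fitted value, and after scaling to TPM the split was 15 and 5. Their log2 differences ran from -0.37 to 0.39 with a median of -0.02. Limma called 0 of them and 1 had an unadjusted p under 0.05. The groups did not overlap for 3 genes in the higher direction and 1 in the lower. The nearest tested gene upstream of Ceacam2, Erich4, was the lower one, at 140.2, 126.4 and 152.9 FPKM after IVCC and 157.3, 160.5 and 164.5 FPKM after sham surgery (log2 difference -0.20, standard error 0.12, limma adjusted p = 0.924). On the other side of Ceacam1, Lipe, which encodes hormone-sensitive lipase, averaged 7.68 ± 0.973 and 8.04 ± 0.856 FPKM with overlap. The growth factor gene Tgfb1 averaged 3.98 ± 0.178 and 3.88 ± 0.575 FPKM, and Bckdha, of branched-chain amino acid breakdown, averaged 282.3 ± 61.8 and 306.7 ± 72.0 FPKM. Exosc5, of the RNA exosome, and B9d2, a cilium gene, also overlapped. The long antisense gene 4732471J01Rik crosses the locus on the plus strand from 25376819 to 25566417, but none of its exon bases lies in an exon of either paralog, and it stood at 0.146 to 0.877 FPKM.

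**Figure D4:**
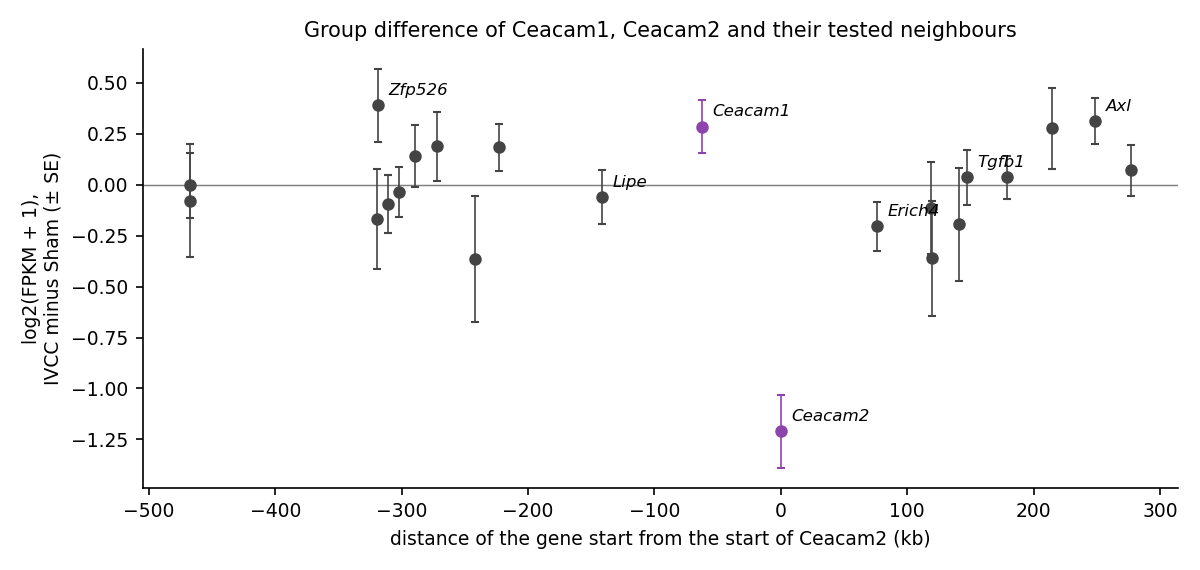
Difference between the groups, IVCC minus Sham, on the log2(FPKM + 1) scale with its standard error, for Ceacam1 and Ceacam2 (purple) and the 20 tested genes that start within 500 kb of either, against the distance in kb from the start of Ceacam2. Ceacam2, which was chosen for its difference, lies at -1.21, and the neighbours lie between -0.37 and 0.39.

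The genes whose levels most resembled each paralog over the 6 libraries were found by Pearson correlation on the log2(FPKM + 1) scale among 11335 other genes. Both groups are in these correlations, so they follow the group difference and carry no test. The correlation between the paralogs themselves was -0.78. Nearest to Ceacam2 were Fam107a (r = 0.995), the histone deacetylase gene Hdac2 (0.990), Mep1b, which encodes a metalloprotease subunit of the proximal tubule brush border (0.989), the chaperone gene Dnajc7 (0.989) and the fatty acid desaturase gene Scd1 (0.989). Mep1b stood at 68.6, 74.0 and 94.3 FPKM after IVCC and at 116.6, 161.3 and 148.6 FPKM after sham surgery, and like Ceacam2 it was highest in replicate 3 within IVCC and lowest in replicate 1 within Sham. Fam107a stood at 16.8, 16.3 and 20.5 FPKM in the IVCC replicates and at 25.3, 30.2 and 31.7 FPKM in the Sham ones, also with no overlap. The most opposite genes were Mvb12b (r = -0.995), Pitpnm2 (-0.987) and Tom1l2 (-0.987).

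Nearest to Ceacam1 were the glycine decarboxylase gene Gldc (r = 0.988), Fchsd1 (0.981), the nephrin gene Nphs1 of the podocyte slit diaphragm (0.981), the ectonucleotidase gene Entpd1 (0.980) and C1qtnf1 (0.979). Gldc stood at 32.5, 37.9 and 24.5 FPKM after IVCC and at 21.1, 22.9 and 25.8 FPKM after sham surgery, with the same overlap at the libraries numbered 3 as Ceacam1. Nphs1 stood at 4.401, 5.779 and 3.117 FPKM after IVCC and at 2.080, 2.121 and 3.208 FPKM after sham surgery, again with that overlap. The most opposite were Mmd2 (r = -0.986), Brd7 (-0.985) and Gmeb1 (-0.977).

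**Figure D5:**
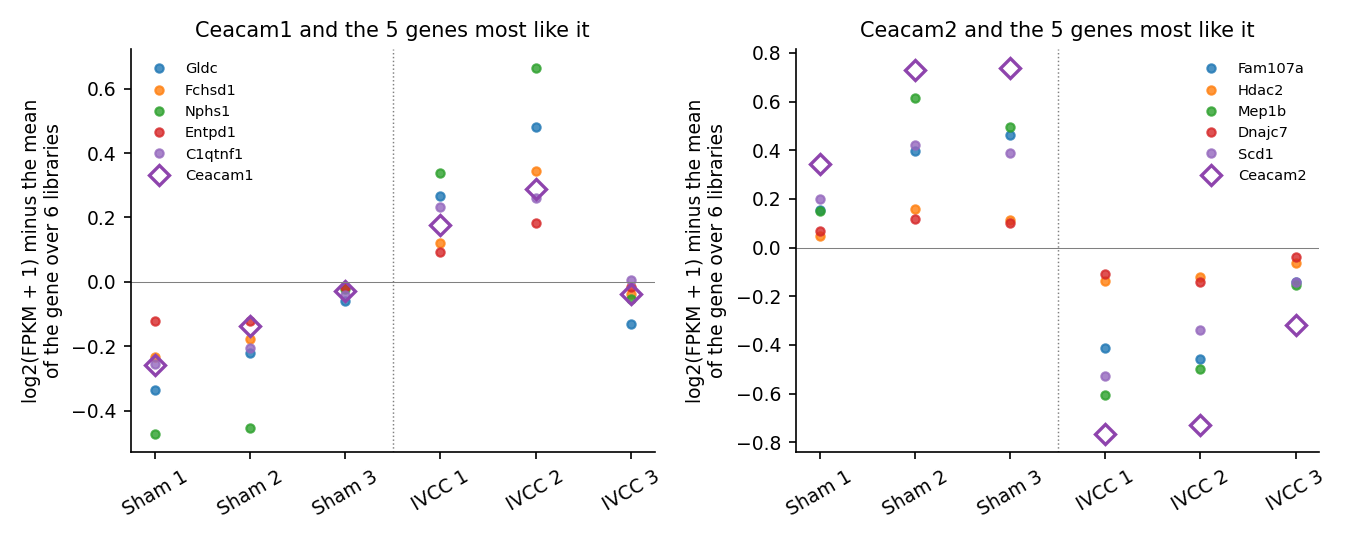
Level of each paralog (open diamonds) and of the 5 genes most correlated with it (dots) in each library, as log2(FPKM + 1) minus the mean of the gene over the 6 libraries. The Ceacam1 set meets near 0 in Sham 3 and IVCC 3, whereas the Ceacam2 set lies above 0 in all Sham and below 0 in all IVCC libraries.

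Beside Ceacam1, markers of several cell types also had higher fitted values in IVCC. Over all 12090 fitted genes, 5851 had a higher fitted value and 4.09% had all IVCC values above all Sham values. Of 8 podocyte markers 8 had a higher fitted value in IVCC, 3 without overlap, and their summed level was 75.7 to 127.4 FPKM after IVCC and 63.2 to 70.7 FPKM after sham surgery. Of 10 endothelial markers 9 were higher, 3 without overlap, with sums of 173.8 to 188.7 and 152.5 to 169.0 FPKM. The junction gene Pecam1 stood at 15.3, 15.6 and 15.8 FPKM after IVCC and 12.8, 11.8 and 10.8 FPKM after sham surgery (limma adjusted p = 0.924). Of 10 myeloid markers 9 were higher, 3 without overlap, with sums of 95.7 to 125.1 and 80.03 to 86.3 FPKM. Of 8 stromal markers tested 5 were higher, all 5 without overlap. The sums over all 9 listed stromal markers overlapped, at 51.96 to 71.1 and 57.8 to 65.7 FPKM. The part of these cell types in the values of Ceacam1 was not tested.

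Beside Ceacam2, the sums of the tubular markers overlapped between the groups. The 10 proximal tubule markers summed to 7342 to 8113 FPKM after IVCC and 7514 to 8487 FPKM after sham surgery, with 6 higher and 4 lower. Of these, 1 was higher without overlap, beside 4.09% of all fitted genes. That was Slc34a1, at 2377 to 2576 FPKM after IVCC and 2131 to 2258 FPKM after sham surgery (log2 difference 0.17, standard error 0.18). The 10 collecting duct markers summed to 451.3 to 615.7 and 517.3 to 666.5 FPKM, with 5 higher and 5 lower. The 8 markers of the thick ascending limb were split 4 and 4, with sums of 2092 to 2295 and 1667 to 2962 FPKM, and of the 7 distal and connecting tubule markers 6 were higher, with sums of 543.2 to 676.2 and 455.2 to 689.3 FPKM. Urothelial markers were sparse and uneven. Their sum was 1.23 to 2.36 FPKM after IVCC and 1.35 to 11.8 FPKM after sham surgery, and 1 of 10 was tested. That was Psca, at 0, 0.180 and 0.668 FPKM after IVCC and 2.625, 0.425 and 3.250 FPKM after sham surgery, with overlap. Its mean was 0.283 FPKM after IVCC and 2.10 FPKM after sham surgery. It thus passed the filter of 1 FPKM only through Sham, and nothing is read from its difference. The plaque genes Upk3a and Upk2 reached 2.525 and 2.189 FPKM in Sham replicate 3, and Upk2 was listed at 0 in the other libraries. The part of urothelial cells in the values of Ceacam2 was not tested. Platelet, lymphocyte and neutrophil markers, of cells known to carry CEACAM proteins, had 2 tested members each and overlapping sums.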

How the data were processed

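RNA of 6 mouse kidney libraries was made into stranded mRNA libraries and read as single 75-base reads, per the labels' protocols. The authors deposited 1 table of FPKM, with 1 column per library, matched by title. The submitters' processing notes name mm10, Cufflinks 2.2.1, TopHat2 2.0.13, SAMtools 0.1.19 and Bowtie2 2.2.3, with no roles. Which annotation was used, whether counting used strand, and how reads that match several places were handled is not given in the sources used here. All 6 columns were used.

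The 12090 genes that averaged 1 FPKM or more (12256 fell below) were fitted on log2(FPKM + 1) with limma 3.58.1 in R 4.3.3, with a mean-variance trend, two-sided, and Benjamini-Hochberg adjustment over all of them at a threshold of 0.05. The fit was tested on simulated data. With 3 against 3 libraries the smallest exact permutation p is 0.1, and that test was left out. FPKM sums were 719896 to 1118260 per library. Nominal depth used genes with 1 annotated transcript of 1500 to 5000 bases, values between 0.02 and 0.1 FPKM and an assumed fragment length of 200 bases. Nominal reads of Ceacam2 used the length of its longest-coding transcript only. Because the true depth is unknown, no counting intervals are given. Sequences and coordinates are from GENCODE M21 (GRCm38, the assembly mm10 names); coding parts were aligned with Biopython 1.88.

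The members and gene lists were chosen with earlier results of these data known. Named genes are the pair, family members above the filter and up to 3 below it, the 3 members of each list with the smallest p, a short fixed set (Ptpn6, Ptpn11, Insr, Havcr2, Irf1, Pparg, Pecam1, Slc34a1, Upk3a, Psca), the 5 most and 3 least correlated genes per paralog, and the 6 nearest tested neighbours. Ceacam10, Upk2, Adipoq, Fabp4, Cyp11a1, Zfp526 and 4732471J01Rik were named after their values were seen where this rule does not take them. Of the genes this rule takes, 1 regulator is not reported here.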

Additional observations from a re-analysis of the deposited data

How the results depend on the processing

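The groups of Ceacam2 do not overlap, so a left-out library or another pseudocount cannot turn its direction. The log2 difference of Ceacam2 was -1.54 with a pseudocount of 0.1 and -0.63 with one of 5, which follows from how the pseudocount weighs low values. Scaling to TPM made that of Ceacam1 0.45 and the difference of the summed FPKM -0.78 (13.1 in IVCC against 13.9 in Sham), and moved the median of all genes to 0.15. Relative to that median Ceacam1 lay at 0.30 and Ceacam2 at -1.27, beside 0.29 and -1.20 in the values as deposited. Leaving out 1 library at a time gave -1.35 to -1.13 for Ceacam2, 0.21 to 0.37 for Ceacam1, -30.6 to -25.2 percentage points for the Ceacam2 share and -3.01 to -1.51 FPKM for the sum. Over all genes limma called 0 to 4 with a library left out (2 without IVCC replicate 1, 3 without IVCC replicate 2, 4 without IVCC replicate 3, 1 without Sham replicate 2). Those with an unadjusted p under 0.05 numbered 214 to 1039. No partner, regulator, family member or neighbour was called under any setting tried.

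With the replicate number as a block limma called 0 of 12090 genes, and 2388 had an unadjusted p under 0.05. Among those were 7 of 25 partners, 4 of 14 regulators, 6 of 20 neighbours and Psg23, the 1 other family member tested. The differences of Ceacam1 and Ceacam2 were 0.28 and -1.21, which a block cannot change in a balanced design. The labels do not say that the numbers pair the libraries, so the main fit had no block. The deviations of libraries with the same number correlated at -0.11, 0.34 and 0.32 for numbers 1 to 3. IVCC 2 with Sham 3 and IVCC 3 with Sham 2 correlated at -0.37 and -0.36. Both libraries numbered 1 correlated better with a library of another number. Whether libraries of the same number share a batch was not tested. Depth is known only nominally. At those sizes and the length of its longest-coding transcript, a single read of Ceacam2 is worth 0.0412 to 0.0616 FPKM. In family members of other transcript lengths a read is worth a different amount. Which of their low values can be told from 0 is therefore not known.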
